A study of Mus musculus with 4 samples.

Results

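The miR-130/miR-301 family was followed by its 3p strands in mouse E14Tg2A embryonic stem (ES) cells and in the epiblast-like aggregates (ELA) made from them. The 4 members, mmu-miR-130a-3p, mmu-miR-130b-3p, mmu-miR-301a-3p and mmu-miR-301b-3p, were taken by name from the 1907 mature miRNAs listed, a rule that uses no measured value. Small RNA was sequenced from 4 groups of this 129/Ola line, with 1 library each. ES serum and ES 2iL are ES cells on day 0 in vitro, kept on gelatin with leukemia inhibitory factor (LIF) in fetal calf serum or, for several passages, in 2iL, an N2/B27 medium with the MEK inhibitor PD0325901, the GSK3 inhibitor CHIR99021 and LIF. ELA serum and ELA 2iL are the aggregates obtained from those cells after 2 days of floating culture in a chemically defined minimal medium, without LIF or inhibitors, so that their names give the medium of the ES cells of origin. RNA of 3 experiments was pooled into each library, and the spread between experiments was therefore not measured.

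A miRNA guides Argonaute proteins to mRNAs, mostly through its seed (bases 2 to 8), and miRNAs that share a seed can act on the same targets. The miR-130/miR-301 family is known as a repressor of the nuclear receptor PPARγ, and it has been shown to favour the reprogramming of mouse fibroblasts to pluripotent cells through the homeobox gene Meox2. Its 3p strands are the guide strands, while the 5p strands are mostly discarded. ES cells in 2iL stand for ground-state pluripotency and ELA for the primed state that follows it.

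Sequences are printed to show what the members share and where they part, with the seed in capitals. RefSeq (GRCm38.p6) held the mature sequence of 3 of the 4 members (mmu-miR-301b-3p was not matched).
miR-130a-3p: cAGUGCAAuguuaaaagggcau
miR-130b-3p: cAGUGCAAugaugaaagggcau
miR-301a-3p: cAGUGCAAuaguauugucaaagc
The seed AGUGCAA was identical in the 3 miRNAs. miR-130a-3p and miR-130b-3p had the same first 10 bases and differed, in 22 positions counted from 1 at the 5′ end, only by U11A and A13G. miR-301a-3p left both after base 9, and 12 of 22 positions were identical with miR-130a-3p. These 3 members thus shared a seed and differed in the 3′ part.

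The 4 hairpins lie at 3 places in the genome (mm9, GENCODE vM1). Mir130a is intergenic on the minus strand of chromosome 2 (84581272 to 84581335), 2460 bp from Ypel4. Mir301, the hairpin of miR-301a, lies on the plus strand of chromosome 11 (86926506 to 86926591) in an intron of Fam33a on the same strand, a gene also called Ska2 that encodes a spindle and kinetochore protein. Mir301b (17124493 to 17124589) and Mir130b (17124154 to 17124235) form a cluster on the minus strand of chromosome 16, with 257 bp between them, in an intron of 2610318N02Rik on the same strand.

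The libraries held 587363 to 8056984 reads on miRNAs, and the members 734 to 22422 reads each. Levels are in RPM (reads per 1000000 miRNA reads), a share of the library and not an amount per cell. Each read counts once whatever its length. Adaptor ligation and amplification can differ between miRNA sequences, which was not tested, so that orders and ratios between miRNAs are those of reads, and only their differences between libraries are compared. Intervals are exact 95% intervals on the reads and cover counting error only. As a check of the labels, all 5 markers of pluripotent cells, led by mmu-miR-295-3p, were read in every library (summed level 45804 to 150603 RPM). Summed over its 5 markers, the miR-302/miR-367 cluster of the primed state was higher in ELA than in ES cells of the same medium, with 34066 against 5384 RPM in serum and 5751 against 69.8 RPM in 2iL. The defining miRNAs of liver (miR-122-5p) and endothelium (miR-126a-3p) were at 0 in all libraries, the 3 of blood summed to at most 8.51 RPM, the 3 of muscle to at most 73.2 RPM (0 in ES 2iL), and the 2 of neural cells to 262 to 424 RPM. The 4 mesenchymal markers summed to 3144 and 4834 RPM in ES serum and ES 2iL and to 1470 and 1961 RPM in the ELA of those media, nearly all of it miR-143-3p, and their part in the values below was not tested. The title, source name and medium entries of each sample matched the columns, while the free-text descriptions exchange ES 2iL and ELA serum and were not followed.

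The family was best represented in ES 2iL and least in ES serum. The members together measured 6794 RPM (0.679% of the reads) in ES serum, 8563 RPM (0.856%) in ELA serum, 14969 RPM (1.497%) in ES 2iL and 11165 RPM (1.12%) in ELA 2iL. The counting intervals of the 4 sums did not overlap, so under RPM the order ES 2iL, ELA 2iL, ELA serum, ES serum exceeded counting error. In ES cells the log2 difference between the media was 1.14 under RPM and 0.65 with TMM factors. In ELA it was 0.383 (0.345 to 0.421) under RPM, but 0.033 with TMM factors and 0.020 with DESeq2 size factors, less than the distance from the RPM value to either end of its interval. The order of ELA 2iL and ELA serum was within counting error under these 2 scalings, but not with totals without the 5 most abundant miRNAs (0.356).

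mmu-miR-301a-3p varied most. It measured 1845 RPM in ES serum, 2369 RPM in ELA serum, 7674 RPM in ES 2iL and 4176 RPM in ELA 2iL. Both 2iL libraries were above both serum libraries, and the highest library was 4.16 times the lowest. mmu-miR-301b-3p had the fewest reads of the members throughout, with 605 RPM in ES serum, 978 RPM in ELA serum, 1254 RPM in ES 2iL and 1249.7 RPM in ELA 2iL. Its 2 values in 2iL were not told apart by counting, and ES serum was the low library.

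mmu-miR-130a-3p measured 2783 RPM in ES serum, 3405 RPM in ELA serum, 3927 RPM in ES 2iL and 3654 RPM in ELA 2iL. mmu-miR-130b-3p, which is nearest to it in sequence but is transcribed elsewhere, measured 1561 RPM in ES serum, 1811 RPM in ELA serum, 2115 RPM in ES 2iL and 2086 RPM in ELA 2iL. ES serum was again the low library for both. The highest library was 1.41 and 1.36 times the lowest, respectively, and the 2 values of mmu-miR-130b-3p in 2iL had overlapping intervals. By the SD of log2(RPM + 1) over the 4 libraries, mmu-miR-130b-3p (SD 0.21) and mmu-miR-130a-3p (SD 0.21) were among the steadiest of the 302 expressed miRNAs, taken as those whose log2(RPM + 1) averaged 5 or more. Of these, 16 and 20, respectively, had a smaller SD, and the median SD was 0.73. The ranking used RPM and was not matched for level. Counting error adds more to the SD of miRNAs with few reads. The SD was 0.49 for mmu-miR-301b-3p (81 smaller) and 0.92 for mmu-miR-301a-3p (198 smaller).

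**Figure D1:**
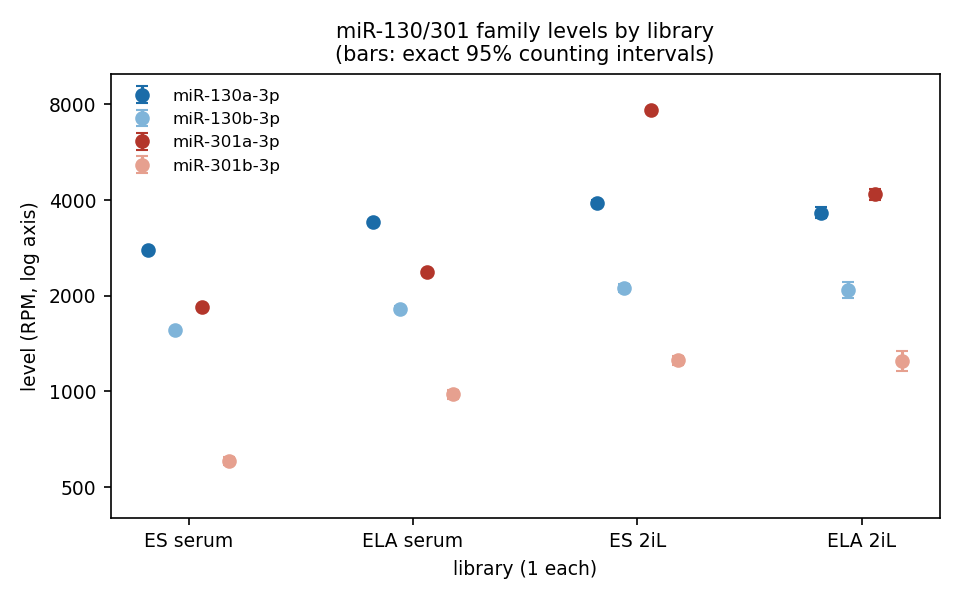
Level of each member (RPM, log axis) in each of the 4 libraries, with exact 95% counting intervals that are mostly smaller than the points. miR-301a-3p moves from 1845 RPM in ES serum to 7674 RPM in ES 2iL, while miR-130a-3p stays between 2783 and 3927 RPM.

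Shares within the family do not depend on how libraries are scaled, and the leading member differed between the media. mmu-miR-130a-3p led in serum, with 41.0% of the family's reads in ES cells (interval 40.6 to 41.4) and 39.8% in ELA (39.3 to 40.3). mmu-miR-301a-3p led in 2iL, with 51.3% in ES cells (50.8 to 51.7) and 37.4% in ELA (36.2 to 38.6), against 27.2% and 27.7% in serum. mmu-miR-130b-3p took 14.1% to 23.0% and was outranked by these 2 in every library. mmu-miR-301b-3p took 8.38% to 11.4% and was last.

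**Figure D2:**
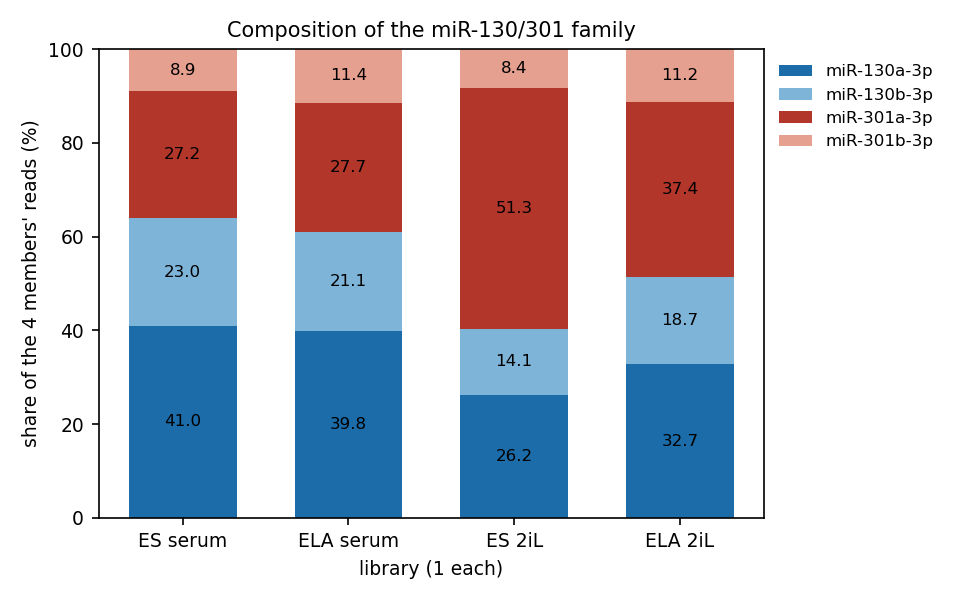
Share of the 4 members' reads (%) taken by each member, 1 stacked bar per library. miR-301a-3p takes 51.3% in ES 2iL and 27.2% in ES serum.

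Read ratios between members are likewise free of the scaling. In serum, mmu-miR-301a-3p had 0.663 times (0.649 to 0.677) the reads of mmu-miR-130a-3p in ES cells and 0.696 times (0.678 to 0.714) in ELA. In 2iL it had 1.95 times (1.91 to 2.00) the reads in ES cells and 1.14 times (1.08 to 1.21) in ELA. The ratio lay below 1 in both serum libraries and above 1 in both 2iL libraries. The ratio of mmu-miR-130a-3p to mmu-miR-130b-3p, which come from different chromosomes, spanned a narrower range. In serum it was 1.78 (1.74 to 1.82) in ES cells and 1.88 (1.83 to 1.93) in ELA, intervals that did not overlap. In 2iL it was 1.86 (1.799 to 1.92) in ES cells and 1.75 (1.63 to 1.88) in ELA. The pair from the chromosome 16 cluster was less constant. mmu-miR-130b-3p exceeded mmu-miR-301b-3p 2.58-fold (2.50 to 2.67) in ES cells in serum and 1.85-fold (1.78 to 1.92) in the ELA made from them. In 2iL the excess was 1.69-fold (1.62 to 1.76) in ES cells and 1.67-fold (1.52 to 1.83) in ELA. ES serum was the high library, with an interval clear of the other 3.

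**Figure D3:**
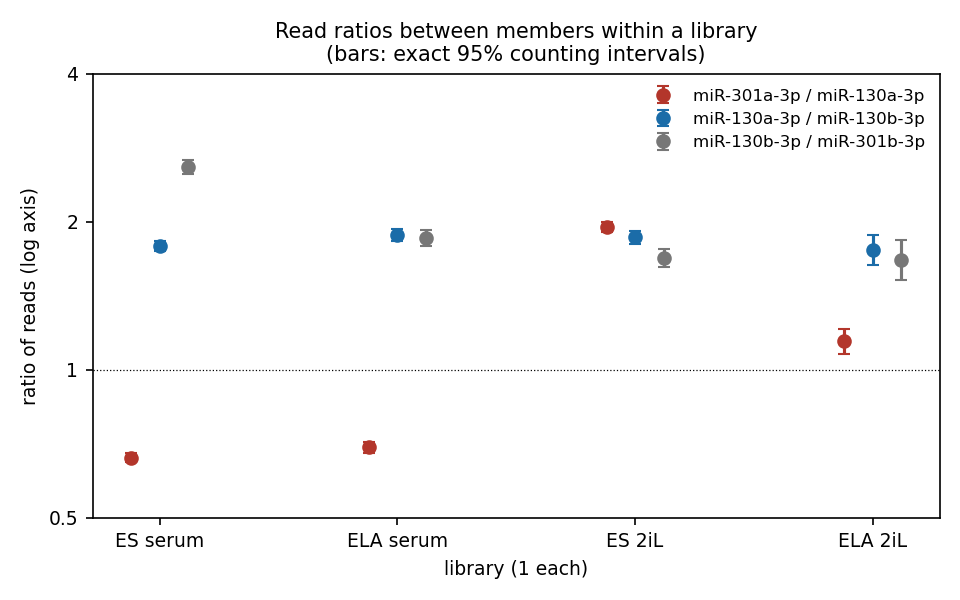
Ratio of reads between pairs of members (log axis) in each library, with exact 95% counting intervals; the dotted line marks a ratio of 1. The miR-301a-3p to miR-130a-3p ratio goes from 0.663 in ES serum to 1.95 in ES 2iL, while miR-130a-3p to miR-130b-3p stays between 1.75 and 1.88.

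The first comparison concerned the medium of the ES cells. In ES cells, mmu-miR-301a-3p was 4.16-fold (4.07 to 4.25) higher in 2iL than in serum, and mmu-miR-301b-3p 2.07-fold (1.98 to 2.17) higher. mmu-miR-130a-3p was 1.41-fold (1.38 to 1.44) and mmu-miR-130b-3p 1.36-fold (1.31 to 1.40) higher. Of the 4 members, 2 were thus higher by at least 2-fold (a difference in log2(RPM + 1) of at least 1), against 30.8% of the 302 expressed miRNAs in the same pair of libraries. The median expressed miRNA was itself 0.44 (log2) higher in ES 2iL. Relative to it the log2 differences were 1.62 for mmu-miR-301a-3p, 0.61 for mmu-miR-301b-3p, 0.06 for mmu-miR-130a-3p and 0.00053 for mmu-miR-130b-3p, and 22 expressed miRNAs had a larger difference than mmu-miR-301a-3p. Under the 3 other scalings, mmu-miR-301a-3p was still past 2-fold (log2 difference 1.57 to 1.78) and mmu-miR-301b-3p was not (0.56 to 0.78). The difference of mmu-miR-130b-3p was −0.052 with TMM factors.

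In ELA the differences between media were smaller. mmu-miR-301a-3p was 1.76-fold (1.69 to 1.84) higher in ELA 2iL than in ELA serum, mmu-miR-301b-3p 1.28-fold (1.18 to 1.38), mmu-miR-130b-3p 1.15-fold (1.08 to 1.22) and mmu-miR-130a-3p 1.07-fold (1.02 to 1.12). None of the 4 passed 2-fold upward, against 22.2% of the expressed miRNAs. Relative to the median expressed miRNA (0.37 higher in ELA 2iL), mmu-miR-301a-3p was higher by 0.45 on the log2 scale, while mmu-miR-301b-3p (−0.01), mmu-miR-130b-3p (−0.16) and mmu-miR-130a-3p (−0.27) were not. With TMM factors or DESeq2 size factors the log2 difference of mmu-miR-301a-3p was 0.47 or 0.46 in place of 0.82, and those of mmu-miR-130a-3p and mmu-miR-130b-3p were below 0.

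With limma on log2(RPM + 1) over all 4 libraries, the medium contrast (2iL minus serum, averaged over both stages) of mmu-miR-301a-3p was 1.44 ± 0.52 (log2, standard error), with an adjusted p-value of 0.1602. It was 0.70 ± 0.47 for mmu-miR-301b-3p (adjusted p = 0.363), 0.32 ± 0.44 for mmu-miR-130b-3p (adjusted p = 0.657) and 0.30 ± 0.45 for mmu-miR-130a-3p (adjusted p = 0.679). None of the 4 members passed an adjusted p-value of 0.05, and neither did any of the 599 miRNAs tested (0%), although 176 had an unadjusted p-value under 0.05. mmu-miR-301a-3p (unadjusted p = 0.0417) was the only member among these. On the reads recovered from the RPM values, edgeR's quasi-likelihood test passed 39 miRNAs but no member. DESeq2's Wald test on these reads called 15.4% of the miRNAs, and mmu-miR-301a-3p was among them with an adjusted p-value of 0.0484, the lowest of 9 alternatives that ranged up to 0.384. In the contrast over both stages, only mmu-miR-301a-3p was higher by 2-fold, against 23.8% of the expressed miRNAs. The direction of mmu-miR-130a-3p and mmu-miR-130b-3p rested on the scaling, since their contrasts were below 0 under TMM factors and DESeq2 size factors.

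The second comparison concerned the ES–ELA transition. From serum cells, every member was higher in ELA. mmu-miR-301b-3p was 1.62-fold (1.55 to 1.68) higher, mmu-miR-301a-3p 1.28-fold (1.25 to 1.32), mmu-miR-130a-3p 1.22-fold (1.20 to 1.25) and mmu-miR-130b-3p 1.16-fold (1.13 to 1.19). The median expressed miRNA differed by 0.0043 on the log2 scale, and all 4 differences were above 0 under the other scalings as well. No member passed 2-fold, against 24.2% of the expressed miRNAs in either direction.

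From 2iL cells, mmu-miR-301a-3p was lower in ELA, by a log2 difference of −0.88 (−0.94 to −0.82), equal to a level of 0.544 times that of ES 2iL. This was lower under all 4 scalings (−0.63 to −0.88). For the other members the log2 difference was −0.10 (−0.17 to −0.04) for mmu-miR-130a-3p, −0.02 (−0.11 to 0.07) for mmu-miR-130b-3p and −0.0047 (−0.12 to 0.11) for mmu-miR-301b-3p, so that no change of the last 2 was detectable by counting under RPM. These 3 were above 0 under each of the other 3 scalings. No member passed 2-fold, against 42.4% of the expressed miRNAs.

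Averaged over both media, the stage contrast (ELA minus ES) was −0.26 ± 0.52 for mmu-miR-301a-3p (limma adjusted p = 0.790), 0.34 ± 0.47 for mmu-miR-301b-3p (adjusted p = 0.700), 0.10 ± 0.44 for mmu-miR-130b-3p (adjusted p = 0.918) and 0.09 ± 0.45 for mmu-miR-130a-3p (adjusted p = 0.920). No member passed the test. Of the 599 miRNAs, 0% passed with limma (125 had an unadjusted p-value under 0.05), 0 with edgeR and 54 with DESeq2's Wald test, none of them a member. No member passed 2-fold in this contrast, against 27.8% of the expressed miRNAs.

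**Figure D4:**
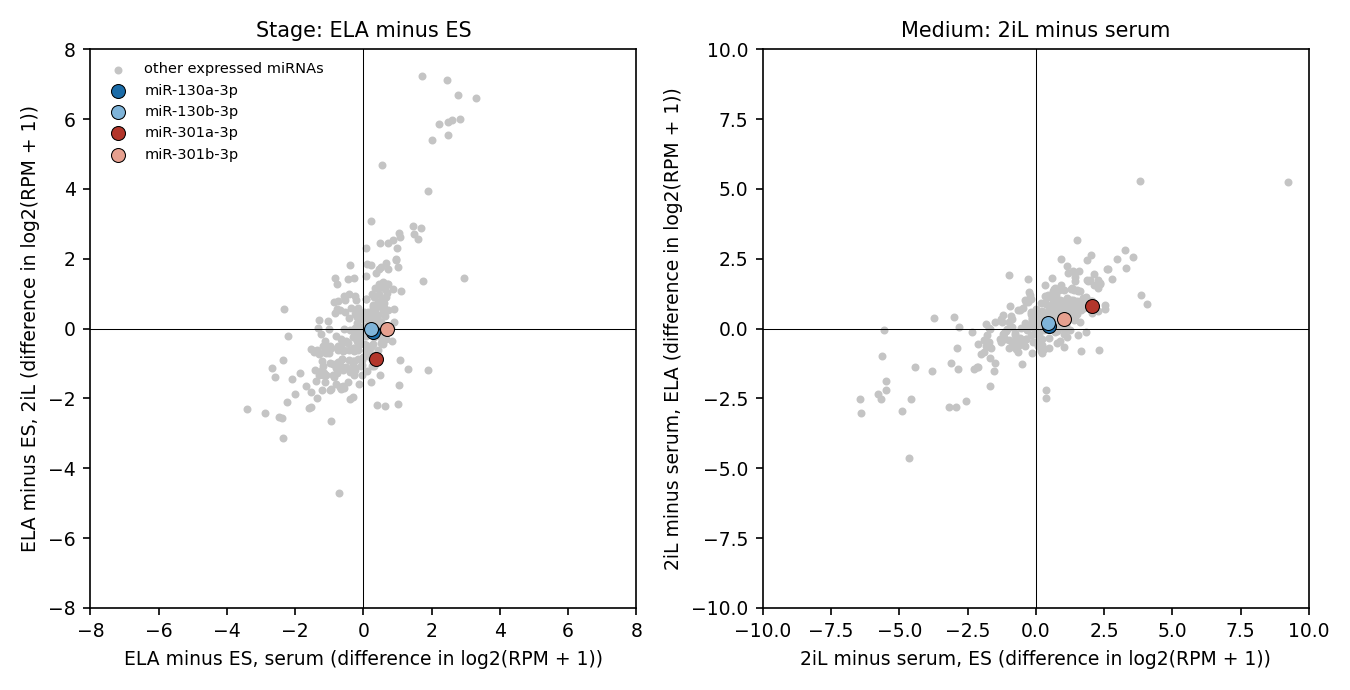
Differences in log2(RPM + 1) for the 302 expressed miRNAs (grey) and the members (coloured), with the stage change from serum against that from 2iL cells (left) and the medium difference in ES cells against that in ELA (right). miR-301a-3p lies below 0 for the stage change from 2iL cells (−0.88) and at 2.06 for the medium difference in ES cells, and miR-301b-3p at 0.69 for the stage change from serum and at 1.05 for the medium difference in ES cells.

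The 5p strands, which the choice of members did not use, gave a second reading of each hairpin. mmu-miR-301a-5p measured 16.0 RPM in ES serum (129 reads), 15.1 RPM in ELA serum (65 reads), 53.5 RPM in ES 2iL (148 reads) and 17.0 RPM in ELA 2iL (10 reads). ES 2iL was the high library for this strand too, 3.34-fold (2.62 to 4.26) above ES serum, and ELA 2iL stood at 0.318 times (0.150 to 0.602) its level. In ELA the 2 media could not be told apart for it, with a ratio of 1.13 (0.517 to 2.21). mmu-miR-301b-5p was likewise 3.37-fold (2.04 to 5.58) higher in ES 2iL (37 reads) than in ES serum (32 reads). ELA 2iL held only 3 reads of it, the floor of detection. mmu-miR-130a-5p measured 17.1 RPM in ES serum, 24.8 RPM in ELA serum, 19.2 RPM in ES 2iL and 15.3 RPM in ELA 2iL (9 reads). From serum cells this strand was 1.45-fold (1.12 to 1.88) higher in ELA. The interval of ELA serum overlapped those of both 2iL libraries. The media could not be told apart for this strand, with a ratio of 2iL to serum of 1.12 (0.799 to 1.55) in ES cells and 0.617 (0.275 to 1.22) in ELA.

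The 5p share of reads differed between libraries for miR-130b. In serum its 5p strand took 12.8% of the hairpin's reads in ES cells (12.3 to 13.4) and 10.5% in ELA (9.85 to 11.1), and in 2iL 9.005% in ES cells (8.32 to 9.73) and 11.5% in ELA (9.86 to 13.3). The intervals of ES serum and ES 2iL did not overlap. For the other 3 hairpins the 5p strand took 0.406% to 1.06% of the reads. Whether ligation and amplification have a part in this gap between sequences was not tested. In level, mmu-miR-130b-5p ranged from 209 to 271 RPM, and it was 0.912 times (0.829 to 1.00) as high in ES 2iL as in ES serum, where its 3p strand was 1.36-fold higher. The 5p sequences are given with bases 2 to 8 in capitals, which are the same in the 2 miR-301 strands and differ from them in the 2 miR-130 strands.
miR-130a-5p: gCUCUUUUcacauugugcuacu
miR-130b-5p: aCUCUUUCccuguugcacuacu
miR-301a-5p: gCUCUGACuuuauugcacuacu
miR-301b-5p: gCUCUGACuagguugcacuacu
None of the 5p strands passed limma for stage or medium, with adjusted p-values of 0.326 to 0.919.

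Of the 1907 listed miRNAs, 1623 had a RefSeq sequence to search. Among these, other miRNAs with the same seed added next to nothing. RefSeq assigns AGUGCAA to 4 further listed miRNAs, mmu-miR-130c, mmu-miR-6341, mmu-miR-6389 and mmu-miR-721. mmu-miR-130c had 1 read, in ES serum, and the other 3 were listed at 0 in all libraries, where 3 reads equal 0.372 RPM in ES serum and 5.11 RPM in ELA 2iL. The reads with this seed were therefore, among the miRNAs matched, almost wholly those of the members.

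Families with overlapping seeds are shown for the letters that they share with AGUGCAA, and their difference from the members was not tested.
miR-19b-3p: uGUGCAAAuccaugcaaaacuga
miR-148a-3p: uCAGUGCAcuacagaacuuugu
The miR-19 family, known for its part in the growth-promoting miR-17/miR-92 cluster, was highest in ELA 2iL. mmu-miR-19b-3p measured 1965 RPM in ES serum, 4010 RPM in ELA serum, 5032 RPM in ES 2iL and 16930 RPM in ELA 2iL, and mmu-miR-19a-3p ranged from 403 to 6677 RPM in the same order. For the miR-148/miR-152 family, known to target the DNA methyltransferase gene Dnmt1, mmu-miR-148a-3p was also highest in ELA 2iL, with 27511 RPM, against 26101 RPM in ES 2iL, 22199 RPM in ELA serum and 14843 RPM in ES serum. mmu-miR-148b-3p (1812 to 2407 RPM) and mmu-miR-152-3p (24.8 to 81.0 RPM) were highest in ES 2iL. Of these 5 miRNAs none passed limma, the lowest adjusted p-value being 0.114 for the medium contrast of mmu-miR-19a-3p.

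The patterns of the members were also compared with those of the other 298 expressed miRNAs, by the root mean square difference of the centred log2(RPM + 1) values over the 4 libraries. Nearest to mmu-miR-301a-3p were mmu-miR-107-3p (0.053), mmu-miR-15a-5p (0.074) and mmu-miR-16-5p (0.10). mmu-miR-16-5p, for example, measured 6408 RPM in ES serum, 8684 RPM in ELA serum, 26385 RPM in ES 2iL and 17195 RPM in ELA 2iL. Nearest to mmu-miR-301b-3p were mmu-miR-296-3p (0.033), mmu-miR-148a-3p (0.085) and mmu-miR-210-3p (0.086). mmu-miR-130a-3p and mmu-miR-130b-3p differed from each other by 0.042 and had the same 3 neighbours, mmu-miR-380-3p (0.078 and 0.093), mmu-miR-25-3p (0.11 and 0.12) and mmu-miR-1197-3p (0.15 and 0.15). For the family sum they were mmu-miR-103-3p (0.12), mmu-miR-210-3p (0.13) and mmu-miR-1197-3p (0.14). By the same measure the distance was wider for miR-301a and miR-301b (0.49) than for miR-130a and miR-130b, and it was 0.25 between mmu-miR-130b-3p and its cluster partner mmu-miR-301b-3p. These are descriptions over 4 libraries, and the neighbours were picked for likeness in these same values. The measure is not scaled for amplitude, so miRNAs that vary little can be near each other whatever their shape.

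**Figure D5:**
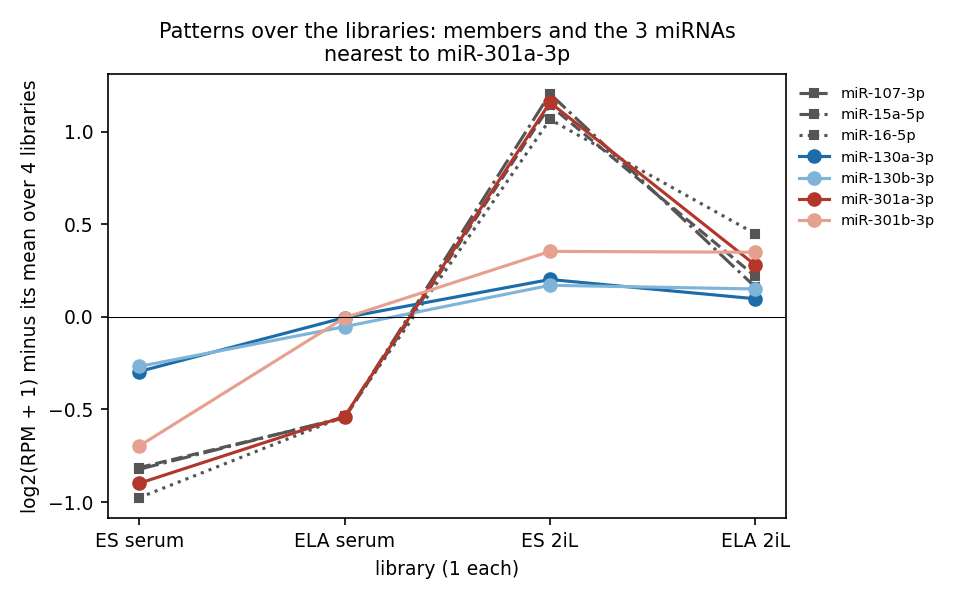
log2(RPM + 1) of each member and of the 3 miRNAs nearest to miR-301a-3p, each minus its mean over the 4 libraries; lines join the values of 1 miRNA and stand for no order of the libraries. miR-301a-3p peaks in ES 2iL, as do its neighbours, which were picked for their likeness to it. The lines of miR-130a-3p and miR-130b-3p (root mean square difference 0.042) run almost together.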

How the data were processed

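Per the labels and methods, the authors demultiplexed reads with CASAVA 1.8, trimmed adaptors with Trimmomatic, mapped with Bowtie to mm9, and used featureCounts to count reads on mature miRNAs (miRBase release 20). The authors deposited them as RPM values. How reads with several matches were treated is not given in the sources used here, so near-identical miRNAs such as miR-130a-3p and miR-130b-3p could share reads. 4 columns were mapped by title (0 left out). All values were whole multiples of what 1 read is worth (100% within 0.01 reads), and so gave back the reads.

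The main test was limma 3.58.1 on log2(RPM + 1), with terms for stage and medium (1 residual and 3.79 prior degrees of freedom, the residual being the departure from additivity). It covered the 599 miRNAs that reached 10 reads in 2 or more libraries, Benjamini-Hochberg adjusted and two-sided. The code was also run on simulated reads that held changes with stage only. That run cannot tell how the test performs where stage and medium depart from additivity. edgeR 4.0.16 and DESeq2 1.42.0, scaled to library totals, were alternatives, and calls on the recovered reads for medium and stage were 39 and 0 (edgeR) and 92 and 54 (DESeq2). With 2 libraries against 2, an exact permutation test cannot go below p = 0.333. Groups of 1 library have no replicate error. Between 2 libraries, ratios have exact (Clopper-Pearson) intervals without a pseudocount. Named miRNAs are the members, their 5p strands, miRNAs with their seed or an overlapping one, and the 3 nearest patterns. The members were taken by name, but the family and the lists were chosen with earlier results of these data known.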

Additional observations from a re-analysis of the deposited data

Results flagged for a closer look

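Under RPM, mmu-miR-301a-3p and mmu-miR-130a-3p changed in opposite directions at the ES–ELA transition in the 2 media. Both were higher in ELA from serum cells and lower in ELA from 2iL cells. mmu-miR-301b-3p and mmu-miR-130b-3p were higher in ELA from serum cells, with point estimates just below 0 from 2iL cells. The change in 2iL minus that in serum was −1.24 (log2, 95% counting interval −1.31 to −1.17) for mmu-miR-301a-3p, −0.70 (−0.83 to −0.57) for mmu-miR-301b-3p, −0.40 (−0.47 to −0.32) for mmu-miR-130a-3p and −0.23 (−0.33 to −0.14) for mmu-miR-130b-3p. The difference was not tested, since each change compares 1 library with 1 library. The changes of mmu-miR-301b-3p and mmu-miR-130b-3p in 2iL had intervals that held 0. Among the 302 expressed miRNAs, 20 had a lower difference than mmu-miR-301a-3p, and the median was 0.03. Opposite signs in the 2 media were kept under the other 3 scalings by mmu-miR-301a-3p alone, with a difference of −0.99 to −1.20.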

How the results depend on the processing

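Of the recomputed stage and medium contrasts of the members, 67 kept their direction and their side of the threshold. The medium contrast was reversed for mmu-miR-130a-3p (−0.12 under TMM factors, −0.08 under DESeq2 size factors) and for mmu-miR-130b-3p (−0.099 and −0.059), and that of mmu-miR-301a-3p (1.44) passed with DESeq2's Wald test. The scaling also moved the differences between 2 libraries. For the family sum they became 0.44 (TMM) and 0.53 (DESeq2 size factors) for ELA minus ES in serum, and −0.175, −0.19 and, with totals without the 5 most abundant miRNAs, −0.18 in 2iL. The difference of 2iL minus serum became 0.65, 0.74 and 0.865 in ES cells, and 0.033 (TMM) and 0.020 (DESeq2 size factors) in ELA. Signs were reversed for mmu-miR-130a-3p in ELA minus ES in 2iL (0.14, 0.13 and 0.14 in the same order), where mmu-miR-130b-3p (−0.020 under RPM) and mmu-miR-301b-3p (−0.0047), with intervals that held 0, came to 0.23, 0.21 and 0.22 and to 0.24, 0.23 and 0.24, and also for mmu-miR-130a-3p in 2iL minus serum in ELA (−0.25 and −0.26), for mmu-miR-130b-3p in 2iL minus serum in ES cells (−0.052, TMM) and in ELA (−0.15 and −0.16), and for mmu-miR-301b-3p in 2iL minus serum in ELA (−0.008, DESeq2 size factors). Under DESeq2 size factors, 1 member in place of 2 passed 2-fold between the media in ES cells. A shift of scaling moves all miRNAs of a library alike, and ratios between members stay as they are. The median expressed miRNA had a medium contrast of 0.42 under RPM, 0.27 with totals without the 5 most abundant miRNAs, 0.0042 under TMM and 0.044 under DESeq2 size factors. Counts of miRNAs called for stage ran from 0 to 99 and for the medium from 0 to 130, the highest without a filter on low reads. The shallowest library, ELA 2iL, limited the 5p strands (3 to 159 reads) more than the members. The labels give no replicate numbers. The stage contrast already set ELA against ES cells of the same medium, since medium was a term of the fit, and without that term limma passed 0 miRNAs for stage (50 at an unadjusted p-value under 0.05).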
